A study of Sus scrofa with 11 samples.

Results

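The NRF2 pathway was followed here through 9 genes, chosen by symbol with earlier results of these data known. They were the 7 targets SRXN1, TXNRD1, NQO1, GCLM, GCLC, UGDH and PGD, and the 2 regulators NFE2L2, which encodes NRF2 itself, and KEAP1. Each matched 1 pig Ensembl ID among the 12505 IDs of the table of liver FPKM (fragments scaled to the length of a transcript and to the mapped total of a library), and all 9 passed the filter of at least 1 FPKM in at least 2 libraries, as did 11644 genes in all.

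NRF2 is a transcription factor that switches on genes for handling oxidants and reactive chemicals. In unstressed cells KEAP1 binds NRF2 and hands it to a CUL3 ubiquitin ligase for destruction, and oxidants that modify cysteines of KEAP1 let NRF2 accumulate, enter the nucleus and pair with small MAF proteins on antioxidant response elements. Much of this control acts on the protein, which a measurement of RNA does not see. The targets fall into arms that make glutathione (GCLC, GCLM), recycle thioredoxin and peroxiredoxin (TXNRD1, SRXN1), reduce quinones (NQO1), supply NADPH (PGD) and make UDP-glucuronic acid for conjugation (UGDH).

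The 11 libraries come from liver of wild-type pigs. They comprise 2 controls labelled day 0 and 3 libraries each after 20, 30 and 40 Gy to the liver, labelled day 35, so dose against control is also day 35 against day 0 and these cannot be told apart. The labels give neither the age of the pigs nor whether libraries came from separate animals, and so a p-value reflects only how far these libraries differ from each other, possibly for technical reasons. The submitters’ title refers to veno-occlusive disease and ferroptosis, a cell death driven by iron and lipid peroxides, which is the question that genes of oxidant defence bear on.

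The labels call the cells hepatocytes, and the 10 hepatocyte markers examined summed to 44845 to 72912 FPKM in control, 46472 to 61719 at 20 and 30 Gy and 28156 to 31049 at 40 Gy. At 40 Gy against control 3 of the 10 fell (ALB, TTR and ASGR1) and 7 were not called, among them FGB (0.65, adjusted p = 0.503) and HNF4A (0.32, adjusted p = 0.623). Markers of macrophages (8 of 9 in the table, 338 to 1172 FPKM) and endothelium (all 8, 109 to 335 FPKM) were present in every library. In such bulk samples fewer cells of a type and less RNA per cell cannot be told apart. A pair of 30 Gy libraries, 30Gy-1 and 30Gy-2, and a pair from different doses, 20Gy-3 and 30Gy-3, were nearly the same: over 4806 genes of at least 5 FPKM in all libraries the SD of the log2 ratio was 0.137 and 0.13 in these pairs and 0.305 to 1.01 in the other 53. Means and SDs count 30Gy-1 and 30Gy-2 once, which gives n = 2 at 30 Gy beside n = 2 in control and n = 3 at 20 and at 40 Gy. The tests count every library, these pairs included, as its own replicate; with the 30 Gy pair averaged, genes called went from 353 to 130 at 30 Gy against control and from 1417 to 532 at 40 against 30 Gy. 40Gy-1 stood apart from 40Gy-2 and 40Gy-3 in several markers, among them macrophage genes (1172 against 514 and 509 FPKM summed) and stellate cell genes (344 against 48.9 and 40.45 FPKM). Changes are on the log2(FPKM + 1) scale with the SE of limma, and a gene was called at a Benjamini-Hochberg adjusted p under 0.05 over all 11644 genes. Calls were repeated under 22 or 23 alternatives per comparison (other scalings, pseudocounts and filters, libraries left out, near-identical libraries merged or dropped).

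The 9 genes fell into 4 patterns. SRXN1 in all 3 libraries at 40 Gy, and TXNRD1 and NQO1 in 40Gy-2 and 40Gy-3, were above every library at lower doses, and none of the 3 genes was called against control at 20 or 30 Gy. UGDH and PGD were high in all 9 irradiated libraries, and GCLM was too, with its highest values in 40Gy-2 and 40Gy-3. GCLC and NFE2L2 were low in the same 3 libraries, 20Gy-2, 30Gy-1 and 30Gy-2, which were also alike over the 4806 genes (SD of the log2 ratio 0.137 to 0.352). KEAP1 was lower at 20 and 30 Gy than in control, with no change called.

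**Figure D1:**
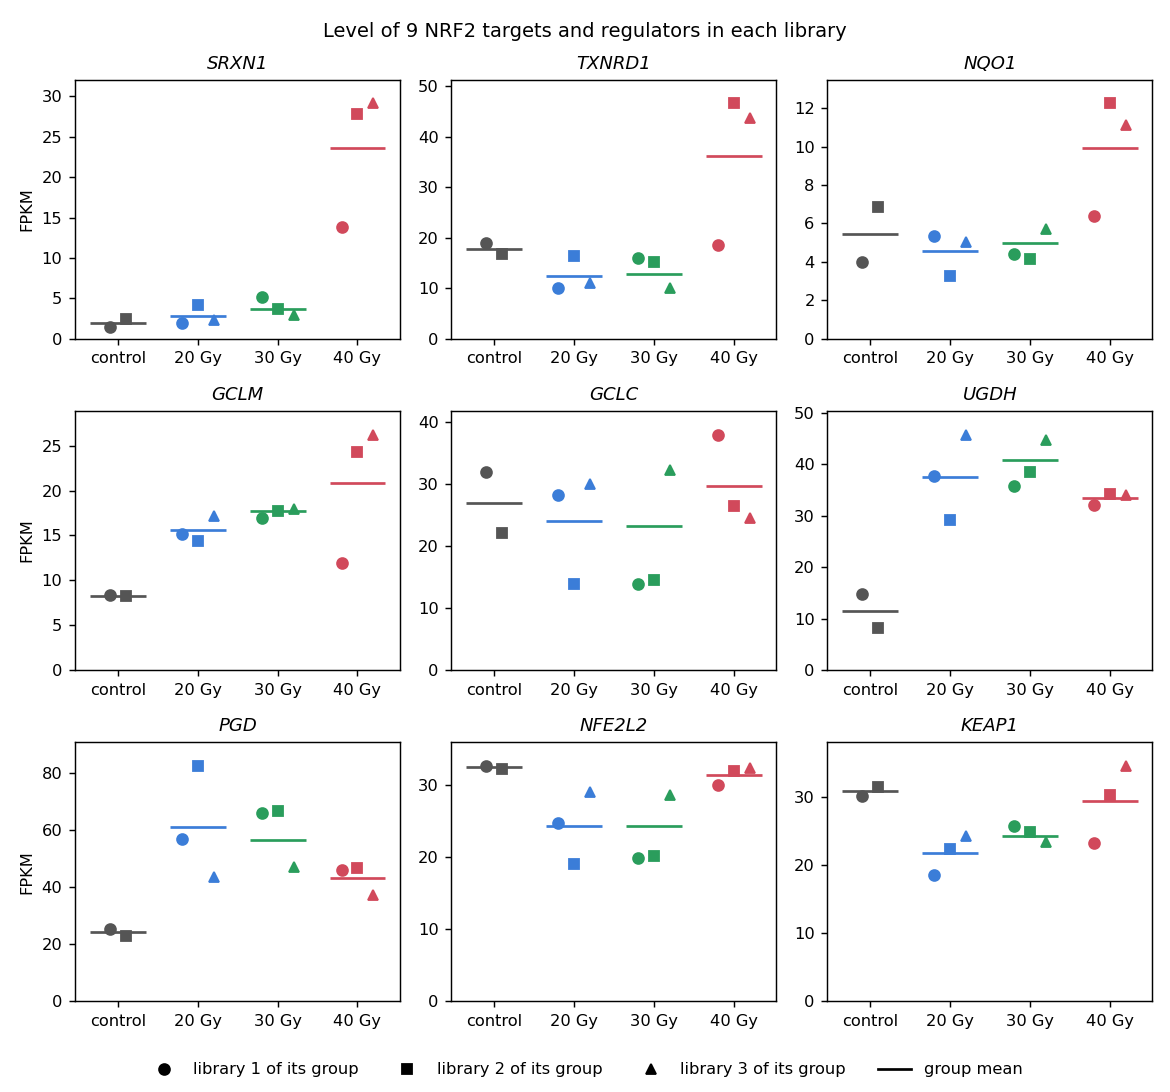
FPKM (vertical axes, from 0) of each of the 9 genes in each of the 11 libraries, by dose group (horizontal axes), with a line at the group mean in which 30Gy-1 and 30Gy-2 count once. SRXN1 stands at 13.8 to 29.2 FPKM at 40 Gy against 1.4 to 5.18 in the other 8 libraries, and UGDH at 29.1 to 45.8 in irradiated liver against 8.12 and 14.7 in control.

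By level, which FPKM states per length, the regulators led in control liver. NFE2L2 averaged 32.4 FPKM, KEAP1 30.9, GCLC 27.0, PGD 24.1, TXNRD1 17.8, UGDH 11.4, GCLM 8.29, NQO1 5.43 and SRXN1 1.93. In the 2 controls NFE2L2 and KEAP1 did not overlap, KEAP1 and GCLC did, GCLC and PGD did, UGDH and GCLM did, and the ranges of the other neighbours in this order were separate. At 40 Gy the order of mean FPKM was PGD 43.3, TXNRD1 36.2, UGDH 33.5, NFE2L2 31.4, GCLC 29.7, KEAP1 29.4, SRXN1 23.6, GCLM 20.8 and NQO1 9.92, and here the ranges of every neighbouring pair overlapped. Between its lowest and highest library SRXN1 moved 20.8-fold, UGDH 5.65-fold, TXNRD1 4.65-fold, NQO1 3.74-fold, PGD 3.63-fold, GCLM 3.19-fold and GCLC 2.74-fold, whereas KEAP1 moved 1.86-fold and NFE2L2 1.71-fold.

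SRXN1 encodes sulfiredoxin, which repairs peroxiredoxins that hydrogen peroxide has over-oxidised (ENSSSCG00000023298, Sscrofa11.1 chromosome 17, 34582377 to 34589308, whole gene). Its level was 1.4 and 2.46 FPKM in the controls 1 and 2, 1.99, 4.17 and 2.36 in the 20 Gy libraries 1 to 3, 5.18, 3.72 and 2.95 at 30 Gy and 13.8, 27.9 and 29.2 at 40 Gy. Every 40 Gy library exceeded all 8 others, and 40Gy-1 was the lowest of its group. The mean rose from 1.93 ± 0.746 (SD, n = 2) FPKM in control to 23.6 ± 8.53 (SD, n = 3) at 40 Gy, or 3.02 on the log2 scale (SE 0.357, adjusted p = 0.00206), which is 8.14-fold on the FPKM + 1 scale and ranked 14 among the rises of all genes tested. SRXN1 was also 6.28-fold higher at 40 than at 20 Gy (log2 2.65, SE 0.32, adjusted p = 0.00106) and 4.82-fold higher than at 30 Gy (2.27, SE 0.32, adjusted p = 0.00248). The calls against control and against 20 Gy held in all 23 alternatives, with adjusted p up to 0.0496 and 0.0327, and that against 30 Gy in 22 of 23, the exception being the merged 30 Gy pair with the cross-dose pair (20Gy-3 and 30Gy-3) dropped, where 1 library stands for 30 Gy (adjusted p = 0.237, range 0.000228 to 0.237).

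At 20 and 30 Gy SRXN1 was not called against control. The log2 differences were 0.37 (95% interval -0.42 to 1.17, adjusted p = 0.571) and 0.76 (-0.04 to 1.55, adjusted p = 0.327). Over the mean of the 3 doses its change of 1.38 passed the threshold (SE 0.306, adjusted p = 0.0321). It was no longer called when either control, 20Gy-3, 40Gy-2 or a member of the 30 Gy pair was dropped (adjusted p = 0.0512 to 0.292), and the range over its 22 alternatives was 0.00474 to 0.292.

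TXNRD1 encodes cytosolic thioredoxin reductase, a selenoenzyme that keeps thioredoxin reduced with electrons from NADPH (ENSSSCG00000000843, chromosome 5, 80170334 to 80213889). Its level was 18.8 and 16.8 FPKM in control, 10.02, 16.4 and 10.9 at 20 Gy, 16.0, 15.3 and 10.1 at 30 Gy and 18.5, 46.6 and 43.6 at 40 Gy. The high values were those of 40Gy-2 and 40Gy-3, whereas 40Gy-1 lay beside control, and every library at 20 and 30 Gy was below both controls. TXNRD1 was 2.63-fold higher at 40 than at 20 Gy (log2 1.39, SE 0.339, adjusted p = 0.0239) and 2.38-fold higher than at 30 Gy (1.25, SE 0.339, adjusted p = 0.0393). Against control the difference at 40 Gy, 0.88 (SE 0.379, adjusted p = 0.184), was not called, nor were those of -0.51 at 20 Gy and -0.37 at 30 Gy (adjusted p = 0.456 and 0.691).

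Without 40Gy-1, the 40 Gy value of TXNRD1 passed the threshold against control as well (1.29, adjusted p = 0.009, range over 23 alternatives 0.009 to 0.453). The call against 20 Gy was lost without 20Gy-1, 20Gy-3, 40Gy-2 or 40Gy-3 (adjusted p = 0.0828 to 0.098, range 0.000732 to 0.166). That against 30 Gy was lost without any 1 library other than 20Gy-2 and 40Gy-1 (adjusted p = 0.0559 to 0.158, range 0.00124 to 0.554), and under median centring (0.0513).

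NQO1 encodes a quinone reductase that is a standard reporter of NRF2 activity (ENSSSCG00000002754, chromosome 6, 17292962 to 17302593). It stood at 4.01 and 6.85 FPKM in control, 5.36, 3.28 and 5.02 at 20 Gy, 4.41, 4.17 and 5.70 at 30 Gy and 6.41, 12.3 and 11.11 at 40 Gy. Again 40Gy-2 and 40Gy-3 were highest and 40Gy-1 lay within the range of control. NQO1 was 1.94-fold higher at 40 than at 20 Gy (log2 0.95, SE 0.268, adjusted p = 0.04), while the difference from 30 Gy (0.89, SE 0.268, adjusted p = 0.0567) and that from control (0.76, SE 0.3, adjusted p = 0.151) missed the threshold. Without 40Gy-1 both passed (1.15, adjusted p = 0.00646, and 1.01, adjusted p = 0.0228, with ranges of 0.00646 to 0.493 and 0.0228 to 0.592 over alternatives). The call against 20 Gy was lost when any 20 Gy library, 40Gy-2, 40Gy-3 or a member of the 30 Gy pair was dropped (adjusted p = 0.0612 to 0.141, range 0.0045 to 0.182), and under median centring (0.0634) and quantile normalization (0.0579).

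The FPKM ratio of TXNRD1 to SRXN1 within a library was lowest at 40 Gy. It was 13.5 and 6.84 in control, 5.03, 3.93 and 4.63 at 20 Gy, 3.1, 4.11 and 3.42 at 30 Gy and 1.34, 1.67 and 1.49 at 40 Gy. These ratios do not depend on the total of a library, and they place 40Gy-1 with the other 40 Gy libraries, which the level of TXNRD1 alone does not.

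Markers of other cells moved with the 40 Gy pattern, and their part in it was not tested. Of 7 neutrophil markers 5 were in the table, none at 0 in every library, and their summed level was 11.02 to 21.9 FPKM at 40 Gy against 5.29 and 6.48 in control, 2.06 to 2.35 at 20 Gy and 1.77 to 2.38 at 30 Gy. CSF3R, the receptor for granulocyte colony-stimulating factor, and S100A12, a calcium-binding protein of neutrophils, rose at 40 Gy, CSF3R by 1.07 (SE 0.21, adjusted p = 0.0156) and S100A12 by 1.79 (SE 0.427, adjusted p = 0.0339). S100A8 was listed at 0 in all 3 libraries at 20 Gy. Of 7 markers of B and plasma cells 4 were in the table, at 71.2 to 110 FPKM summed at 40 Gy and 40.2 to 45.5 in the other 8 libraries. Its members went both ways at 40 Gy against control: the plasma cell genes JCHAIN (2.56, SE 0.256, adjusted p = 0.00109) and MZB1 (1.94, SE 0.354, adjusted p = 0.0118) rose, and the B cell receptor gene CD79A fell (-0.99, SE 0.195, adjusted p = 0.0159). Summed macrophage markers overlapped, with 509 to 1172 FPKM at 40 Gy and 664 and 884 in control, but single members did not all do so. The scavenger receptor CD163 was at 72.5 to 76.3 FPKM at 40 Gy and at most 47.3 in the other libraries, and was higher at 40 than at 20 Gy (2.20, SE 0.596, adjusted p = 0.0354), as was CD68 (1.60, SE 0.45, adjusted p = 0.04). Against control 1 of the 8, MARCO, rose at 40 Gy (3.03, SE 0.757, adjusted p = 0.0404), and the other 7 were not called. Among these 7, CD163 (0.87, adjusted p = 0.457), CD68 (0.63, adjusted p = 0.474), VSIG4 (0.61) and CSF1R (0.40) had positive differences. The complement genes C1QA, C1QB and C1QC had negative ones (-0.71, -0.51 and -0.43).

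**Figure D2:**
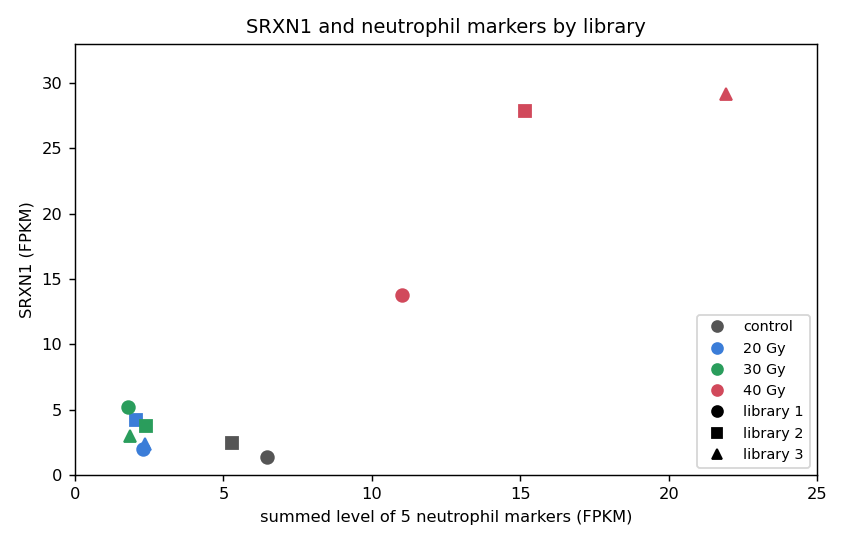
SRXN1 (vertical axis, FPKM) against the summed level of 5 neutrophil markers (horizontal axis, FPKM), 1 point per library, coloured by dose group. The 40 Gy libraries lie at 11.02 to 21.9 FPKM of markers and 13.8 to 29.2 FPKM of SRXN1, and the controls at 5.29 and 6.48 FPKM of markers and 1.4 and 2.46 of SRXN1.

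The subunits of glutamate-cysteine ligase, the enzyme of the first and rate-limiting step of glutathione synthesis, went separate ways. GCLM, the modifier subunit that makes the enzyme more active (ENSSSCG00000037549, chromosome 4, 123371198 to 123390130), was at 8.37 and 8.21 FPKM in control, 15.2, 14.4 and 17.2 at 20 Gy, 17.0, 17.8 and 18.0 at 30 Gy and 11.9, 24.3 and 26.2 at 40 Gy. All 9 irradiated libraries were above both controls, 40Gy-1 least so. Over the 3 doses GCLM rose by 1.0 on the log2 scale, or 2-fold (SE 0.242, adjusted p = 0.0453), and at 40 Gy by 1.16, or 2.23-fold (SE 0.282, adjusted p = 0.0371). The differences of 0.83 at 20 Gy and 1.0 at 30 Gy were not called (SE 0.282, adjusted p = 0.125 and 0.0988), and no dose differed from another in GCLM by the test.

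Both GCLM calls stood close to the threshold. That over all doses was lost without any 1 library other than 40Gy-1 and 40Gy-3 (adjusted p = 0.0596 to 0.258), and that at 40 Gy without any 1 library other than 20Gy-2 and 40Gy-1 (0.0502 to 0.164). Both were also lost under median centring (0.058 and 0.0528) and quantile normalization (0.0523 and 0.0511), and the ranges over alternatives were 0.000658 to 0.274 and 0.000238 to 0.207. Without 40Gy-1 the differences at 20 and 30 Gy were called too (adjusted p = 0.0049 and 0.00227, with ranges of 0.0049 to 0.416 and 0.00227 to 0.929), and 40 Gy then exceeded 20 Gy by 0.67 (adjusted p = 0.00493, range 0.00493 to 0.792).

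GCLC, the catalytic subunit (ENSSSCG00000001488, chromosome 7, 27209565 to 27253535), was at 31.9 and 22.03 FPKM in control, 28.3, 13.8 and 29.99 at 20 Gy, 13.95, 14.5 and 32.2 at 30 Gy and 38.0, 26.5 and 24.5 at 40 Gy. It did not follow dose: 20Gy-2, 30Gy-1 and 30Gy-2 lay at 13.8 to 14.5, below both controls, and the other libraries at 20 and 30 Gy lay at 28.3 to 32.2. No comparison was called, and the change over all doses was -0.19 (95% interval -0.98 to 0.61, adjusted p = 0.811). The FPKM ratio of GCLC to GCLM was 3.81 and 2.68 in control and lower in most irradiated libraries, with 1.86, 0.961 and 1.75 at 20 Gy, 0.821, 0.815 and 1.79 at 30 Gy and 3.19, 1.09 and 0.936 at 40 Gy. Only 40Gy-1 among the irradiated libraries had a ratio within the range of control.

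**Figure D3:**
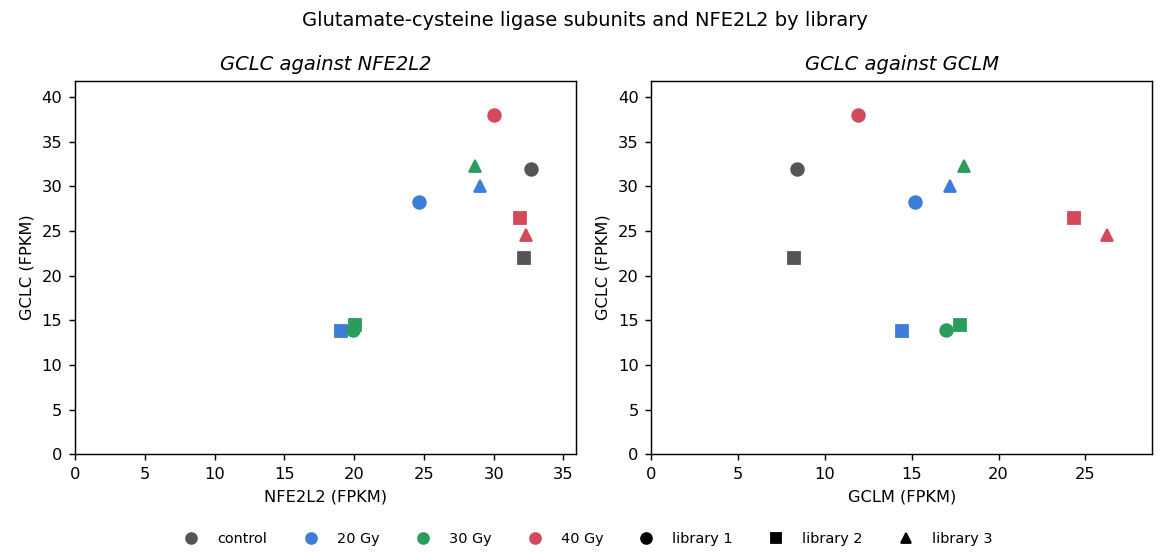
GCLC (vertical axes, FPKM) against NFE2L2 (left) and GCLM (right), 1 point per library, coloured by dose group with the shape giving the library number. On the left 20Gy-2, 30Gy-1 and 30Gy-2 sit together at 13.8 to 14.5 FPKM of GCLC and 19.1 to 20.1 of NFE2L2, and on the right both controls have 8.21 and 8.37 FPKM of GCLM at 22.03 and 31.9 of GCLC.

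UGDH rose at every dose by about the same amount. It encodes UDP-glucose dehydrogenase, which makes the UDP-glucuronic acid that liver spends on conjugating bilirubin and drugs (ENSSSCG00000030150, chromosome 8, 30725281 to 30759359, where the gene table places a non-coding RNA over part of it). Its level was 14.7 and 8.12 FPKM in control, 37.8, 29.1 and 45.8 at 20 Gy, 35.8, 38.4 and 44.8 at 30 Gy and 32.0, 34.2 and 34.1 at 40 Gy. The lowest irradiated library was above the higher control, and the 40 Gy libraries, 40Gy-1 included, lay between 32.0 and 34.2. The log2 rises were 1.67 at 20 Gy, 1.76 at 30 Gy and 1.53 at 40 Gy (SE 0.26 each, adjusted p = 0.00653, 0.00638 and 0.00875), or 3.17-fold, 3.39-fold and 2.88-fold. Between doses UGDH was not called, and its log2 difference between 40 and 20 Gy was -0.14 (95% interval -0.66 to 0.38).

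Averaged over the doses UGDH rose by 1.65 (SE 0.223, adjusted p = 0.00353, range 0.00201 to 0.0717). The control libraries set the size of this change, since control-2 was the lower: without it the rise was 1.26 and the call was lost (adjusted p = 0.0638), as were those at 20, 30 and 40 Gy (0.0664, 0.07 and 0.0691, with ranges of 0.00419 to 0.111, 0.00355 to 0.377 and 0.00517 to 0.101). With the 30 Gy pair merged and the cross-dose pair dropped, all 4 were lost (0.0717, 0.111, 0.377 and 0.0597).

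PGD encodes 6-phosphogluconate dehydrogenase, the second NADPH-making step of the pentose phosphate pathway (ENSSSCG00000003402, chromosome 6, 70675751 to 70692697). It stood at 25.4 and 22.7 FPKM in control, 57.0, 82.5 and 43.6 at 20 Gy, 65.8, 66.6 and 46.9 at 30 Gy and 46.1, 46.6 and 37.2 at 40 Gy. All irradiated libraries exceeded both controls, and the highest values were in 20Gy-2, 30Gy-1 and 30Gy-2, the libraries in which GCLC and NFE2L2 were lowest. PGD rose by 1.26 at 20 Gy and by 1.26 at 30 Gy, 2.4-fold each (SE 0.275, adjusted p = 0.0316 and 0.0401), and by 1.11 over all doses (SE 0.236, adjusted p = 0.0274). At 40 Gy the difference of 0.81 was not called (SE 0.275, adjusted p = 0.102), and the difference between 40 and 20 Gy, -0.45, was not called either (adjusted p = 0.232).

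The PGD call over all doses was lost without either control, 20Gy-1, 30Gy-1 or 30Gy-2 (adjusted p = 0.0528 to 0.223, range 0.0087 to 0.223). That at 20 Gy was lost without either control, 20Gy-1, 20Gy-2, 30Gy-1 or 30Gy-2 (0.054 to 0.18, range 0.00955 to 0.18), and that at 30 Gy without either control, 20Gy-1, 30Gy-1, 30Gy-2, 40Gy-2 or 40Gy-3 (0.0517 to 0.238, range 0.0125 to 0.421). Merging the 30 Gy pair ended all 3 (0.0573, 0.0558 and 0.138).

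**Figure D4:**
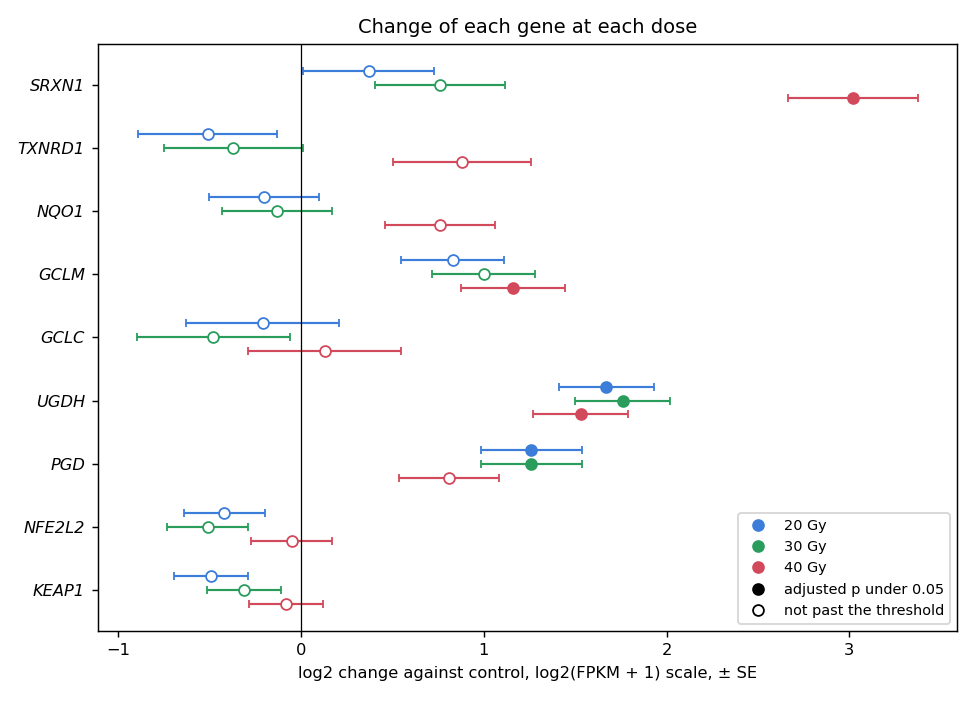
Log2 change against control (horizontal axis, log2(FPKM + 1) scale) of each gene at 20, 30 and 40 Gy, with bars of 1 SE and filled points where the adjusted p was under 0.05. SRXN1 at 40 Gy stands at 3.02, UGDH is filled at all 3 doses between 1.53 and 1.76, and NFE2L2 and KEAP1 lie at or below 0.

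The RNA of the regulators NFE2L2 and KEAP1 was not called as changed in any comparison. NFE2L2 (ENSSSCG00000015987, chromosome 15, 82967485 to 83146185, a span that the gene table overlaps with HNRNPA3 and AGPS, so reads of these may be mixed) was at 32.7 and 32.2 FPKM in control, 24.7, 19.1 and 28.99 at 20 Gy, 19.9, 20.1 and 28.6 at 30 Gy and 30.0, 31.9 and 32.3 at 40 Gy. Both controls and 40Gy-3 were at the top and 20Gy-2, 30Gy-1 and 30Gy-2 at the bottom. The differences from control were -0.42 at 20 Gy, -0.51 at 30 Gy and -0.05 at 40 Gy, none of them called (SE 0.221, adjusted p = 0.291, 0.289 and 0.926). The 95% interval at 40 Gy was -0.54 to 0.45.

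KEAP1 (ENSSSCG00000023667, chromosome 2, 69280940 to 69290267) was at 30.2 and 31.5 FPKM in control, 18.6, 22.4 and 24.4 at 20 Gy, 25.7, 24.96 and 23.4 at 30 Gy and 23.3, 30.3 and 34.6 at 40 Gy. All 6 libraries at 20 and 30 Gy and 40Gy-1 were below both controls, and 40Gy-3 was above them. Its differences from control were -0.49 at 20 Gy, -0.31 at 30 Gy and -0.08 at 40 Gy (SE 0.202, adjusted p = 0.19, 0.493 and 0.833). Between 40 and 20 Gy the difference of 0.41 was not called (SE 0.18, adjusted p = 0.146), but was without 40Gy-1 (0.56, adjusted p = 0.0216, range 0.0216 to 0.4). The ratio of KEAP1 to NFE2L2 was 0.925 and 0.979 in control and ran from 0.755 to 1.29 in irradiated libraries, highest in 30Gy-1, 30Gy-2 and 20Gy-2 at 1.29, 1.24 and 1.18.

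Counted together, 4 of the 9 genes rose over all doses (SRXN1, GCLM, UGDH and PGD), where 1.86% of all genes tested rose and 2.84% fell. Of these only UGDH was also called at each single dose. The 9 were chosen with earlier results of these data known, so these counts and shares are a description and not a test. At 20 Gy 2 rose (UGDH and PGD), beside 2.03% of all genes that rose and 2.2% that fell. The same 2 rose at 30 Gy, beside 1.32% and 1.71%. At 40 Gy 3 rose (SRXN1, GCLM and UGDH), beside 2.99% and 4.41%. Between doses, 3 were higher at 40 than at 20 Gy (SRXN1, TXNRD1 and NQO1), where 8.12% of all genes were higher and 6.9% lower, and 2 were higher at 40 than at 30 Gy (SRXN1 and TXNRD1), where 5.95% were higher and 6.22% lower. None of the 9 was called in the other direction in any comparison. Median centring moved the balance of all genes downward, from 348 higher and 513 lower to 276 and 774 at 40 Gy against control, from 945 and 803 to 663 and 979 against 20 Gy, and from 693 and 724 to 477 and 956 against 30 Gy.

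Between 30 and 20 Gy none of the 9 genes was called, as was none of all genes tested (0% by limma, with 280 genes at an unadjusted p under 0.05). These groups share the near-identical libraries 20Gy-3 and 30Gy-3 (SD of the log2 ratio 0.13), and 20Gy-2 was close to 30Gy-1 (0.323). The lack of calls therefore cannot tell whether the doses had the same effect. With the 30 Gy pair merged and the cross-dose pair dropped, the members called were 0 over all doses, at 20 Gy and at 30 Gy and 1 (SRXN1) at 40 Gy. Without 40Gy-1 they were 4, 3, 3 and 5 in the same order, and 5 and 4 against 20 and 30 Gy. All genes called without 40Gy-1 numbered 1416, 1644, 1110 and 2655, and 4174 and 3815, of 11535 tested.

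A wider list of 39 NRF2 targets, taken from textbook knowledge but also with earlier results known, had 36 genes in the table, all of them tested. Besides the 7 target members, 29 remain. Of these 29, 2 rose and 1 fell over all doses, where 1.86% of all genes tested rose and 2.84% fell. At 20 Gy 1 rose and 1 fell, beside 2.03% and 2.2%. At 30 Gy 4 rose and 1 fell, beside 1.32% and 1.71%. At 40 Gy 2 rose and 1 fell, beside 2.99% and 4.41%. The median log2 change of the 29 was 0.32 over all doses, 0.20 at 20 Gy, 0.26 at 30 Gy and 0.24 at 40 Gy. The median of all genes tested was 0.01, -0.03, -0.02 and 0.06. At 40 against 20 Gy 2 of the 29 were higher and 4 lower, beside 8.12% and 6.9% of all genes. At 40 against 30 Gy 0 were higher and 7 lower, beside 5.95% and 6.22%. With the pair merged and both other libraries left out, 0 of the 29 were called in any of these 6 comparisons.

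**Figure D5:**
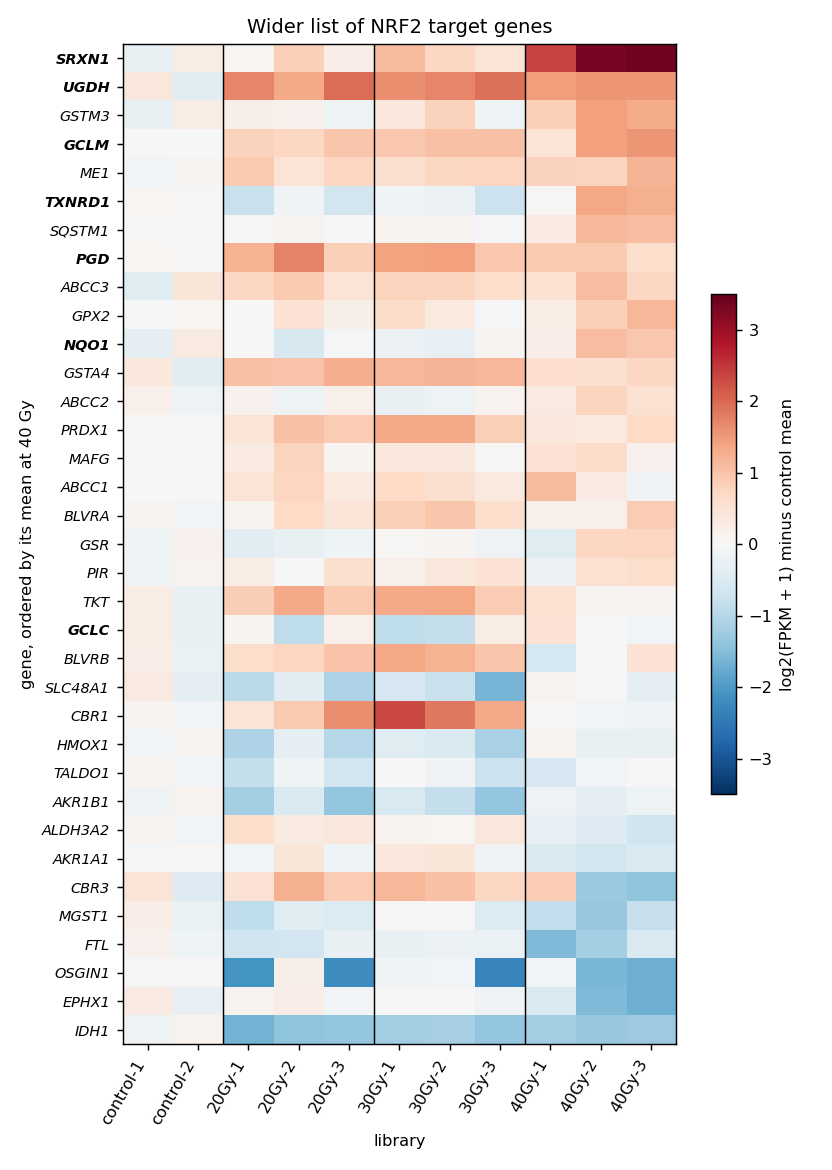
Log2(FPKM + 1) of 35 of the 36 tested genes of the wider NRF2 list (rows, the 7 target members in bold) in each library (columns, with lines between dose groups), as the difference from the control mean, ordered by the mean at 40 Gy. SRXN1 and UGDH head the list, IDH1 ends it, and EPHX1 is low in 40Gy-2 and 40Gy-3 (164 and 147 FPKM).

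Among the other targets the antioxidant and NADPH genes did not move together. GSTA4, a glutathione transferase for the lipid peroxidation product 4-hydroxynonenal, was at 19.1 and 11.2 FPKM in control and at 30.6 to 36.6 at 20 and 30 Gy. It rose at 20 Gy by 1.09 (SE 0.216, adjusted p = 0.0208, lost without control-2, 20Gy-1 or 20Gy-3 with adjusted p = 0.0709 to 0.152, range 0.0103 to 0.218). GSTA4 was also called higher at 30 Gy and over all doses, and was not called at 40 Gy. The cytosolic isocitrate dehydrogenase IDH1, another source of NADPH, went down: it was at 181 and 211 FPKM in control and between 61.1 and 86.8 in all 9 irradiated libraries. IDH1 fell by 1.47, 1.26 and 1.28 on the log2 scale at 20, 30 and 40 Gy (SE 0.185, adjusted p = 0.00241, 0.00638 and 0.00432), calls that held without any 1 library except at 30 Gy without control-2 (0.0723), with ranges over alternatives of 0.000922 to 0.0703, 0.00214 to 0.483 and 0.00137 to 0.0997.

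HMOX1, the heme oxygenase that is among the best known NRF2 targets, was not called in any comparison. It was at 109 and 123.0 FPKM in control, 54.5, 91.9 and 58.0 at 20 Gy, 86.2, 81.8 and 51.9 at 30 Gy and 127, 96.2 and 96.3 at 40 Gy. Glutathione reductase, GSR, was at 27.1 and 33.4 FPKM in control, 22.3 in 40Gy-1 and 50.3 and 51.5 in 40Gy-2 and 40Gy-3, the arrangement seen for TXNRD1 and NQO1, and was not called. SQSTM1, the autophagy receptor p62 that binds KEAP1, was at 223 and 230 FPKM in control and at 275, 503 and 475 at 40 Gy. It was 0.78 higher at 40 than at 20 Gy (SE 0.234, adjusted p = 0.0493), a call lost without any 1 library except 40Gy-1 (adjusted p = 0.0598 to 0.167, range 0.00077 to 0.262). HMOX1 and GSR were chosen for mention after their values had been seen.

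The 29 other targets were called in both directions between 40 Gy and the lower doses: against 20 Gy GSTM3 and SQSTM1 were higher and ALDH3A2, CBR1, EPHX1 and TKT lower, and against 30 Gy these last 4, AKR1A1, BLVRB and MGST1 were lower. EPHX1, the microsomal epoxide hydrolase, was at 592.5 and 392 FPKM in control, 446 to 561 at 20 and 30 Gy and 339, 164 and 147 at 40 Gy. It was 1.33 lower at 40 than at 20 Gy (log2 change -1.33, SE 0.308, adjusted p = 0.0205) and 1.23 lower than at 30 Gy (-1.23, SE 0.308, adjusted p = 0.03). The first call was lost without 20Gy-1, 20Gy-3, 40Gy-2 or 40Gy-3 (adjusted p = 0.0555 to 0.0838, range 0.000397 to 0.146), the second without 20Gy-1, any 30 Gy library, 40Gy-2 or 40Gy-3 (0.0501 to 0.125, range 0.000565 to 0.481). Biliverdin reductase B, BLVRB, was lower at 40 than at 30 Gy (-1.20, SE 0.288, adjusted p = 0.0249) and not called against 20 Gy (-0.81, adjusted p = 0.0803). The call against 30 Gy was lost without any 30 Gy library or 40Gy-2 (0.0504 to 0.0948, range 0.016 to 0.438). Summed hepatocyte markers were lower at 40 Gy as well, at 28156 to 31049 FPKM against 46472 to 61719 at 20 and 30 Gy, with ALB, TTR and ASGR1 called lower and the other 7 not called. Some of these 7 had positive differences at 40 against 20 Gy, such as FGB (1.22, adjusted p = 0.114) and CPS1 (0.61, adjusted p = 0.364). The part of these markers in the differences was not tested.

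Of 19 genes that act on NRF2 or share its partners, NFE2L2 and KEAP1 included, 17 were in the table, and 0 were called against control at any dose or over all doses by limma (at an unadjusted p under 0.05 there were 3 at 20 Gy, namely KEAP1, GSK3B and DPP3, 3 at 30 Gy, namely NFE2L2, NFE2L1 and DPP3, 4 at 40 Gy, namely SQSTM1, MAFF, CUL3 and GSK3A, and 1 over all doses, DPP3). Of all genes tested 1.32% to 2.99% rose and 1.71% to 4.41% fell in these comparisons with control, so 0 of 17 is near those shares. Without 40Gy-1, 4 of the 17 were called upward at 40 Gy, where 1345 of all 11535 genes then tested were. CUL3, the scaffold of the ligase that KEAP1 serves, was higher at 40 than at 20 Gy (0.78, SE 0.196, adjusted p = 0.0265) and than at 30 Gy (0.71, SE 0.196, adjusted p = 0.0416). The first call was lost without 20Gy-1, 20Gy-3, 40Gy-2 or 40Gy-3 (adjusted p = 0.072 to 0.116, range 0.00396 to 0.169), the second without any 1 library other than 20Gy-1, 20Gy-2 and 40Gy-1 (0.0562 to 0.164, range 0.00619 to 0.576). The small MAF protein MAFF, a DNA-binding partner of NRF2, was at 2.98 and 2.998 FPKM in control, 4.995, 1.46 and 5.51 at 20 Gy, 1.18, 1.175 and 6.33 at 30 Gy and 9.16, 14.9 and 13.7 at 40 Gy. It was 2.03 higher at 40 than at 30 Gy on the log2 scale (SE 0.491, adjusted p = 0.0259), which was lost without 30Gy-1, 30Gy-2, 40Gy-2 or 40Gy-3 (0.0744 to 0.104, range 0.00833 to 0.162).

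Of 17 measured genes of glutathione synthesis and use, 2 rose and 0 fell over all doses, beside 1.86% and 2.84% of all genes tested. At 20 Gy 2 rose, at 30 Gy 1 and at 40 Gy 1, beside 2.03%, 1.32% and 2.99% of all genes. GCLM was among them over all doses and at 40 Gy. OPLAH, the oxoprolinase that returns glutamate from the breakdown of glutathione, was at 20.8 and 20.5 FPKM in control, 50.5 to 52.7 at 20 Gy, 41.0 to 49.9 at 30 Gy and 15.5 to 16.5 at 40 Gy. It rose at 20 Gy by 1.28 (SE 0.159, adjusted p = 0.00225), a call that held without any 1 library and was lost with the 30 Gy pair merged and the cross-dose pair dropped (0.0699, range 0.000853 to 0.0699), and was lower at 40 than at 20 Gy (-1.63, SE 0.142, adjusted p = 0.000301) in all 23 alternatives. CHAC1, which cleaves glutathione, was at 0.471 and 0.390 FPKM in control and at 13.9, 4.15 and 12.6 at 20 Gy, a rise of 2.83 (SE 0.565, adjusted p = 0.0222) that was lost without either control, 20Gy-1 or 20Gy-3 (0.0728 to 0.138, range 0.0094 to 0.138). At 40 Gy CHAC1 was at 0.116, 1.38 and 1.33 FPKM, 2.47 lower than at 20 Gy (-2.47, SE 0.505, adjusted p = 0.0128, lost without 20Gy-1 or 20Gy-3 with 0.0608 and 0.0561, range 0.00746 to 0.0827).

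Of 17 genes of the thioredoxin and peroxiredoxin system 1 rose and 2 fell over all doses, beside 1.86% and 2.84% of all genes tested. At 40 Gy 2 rose and 3 fell, beside 2.99% and 4.41%. PRDX6, a peroxiredoxin that reduces phospholipid peroxides, was at 261 and 238 FPKM in control, 150 to 201 at 20 and 30 Gy and 88.4, 78.3 and 95.8 at 40 Gy, where it fell by 1.5 (SE 0.193, adjusted p = 0.00254, past the threshold in 22 of 23 alternatives). The mitochondrial thioredoxin TXN2 fell at 40 Gy by 1.12 (SE 0.189, adjusted p = 0.00855), from 198 and 202 FPKM in control to 94.25, 102 and 80.7, and lost the call without either control (0.0536 and 0.0544, range 0.00298 to 0.121). At another dose, 30 Gy, PRDX1, a cytosolic peroxiredoxin and NRF2 target, rose by 1.17 (SE 0.247, adjusted p = 0.0356). This call was lost without either control, 20Gy-3, 30Gy-1, 30Gy-2 or 40Gy-2 (0.0508 to 0.193, range 0.0117 to 0.519). PRDX1 was not called at 40 Gy, and PRDX6 and TXN2 were not called at 30 Gy. SRXN1 and TXNRD1 were higher at 40 than at 20 Gy. PRDX6 was lower there (-0.90, SE 0.172, adjusted p = 0.00975, and 0.0601 without 20Gy-3 and 30Gy-3). PRDX5 was lower too (-0.83, SE 0.245, adjusted p = 0.0472), a call lost in 14 of 23 alternatives. PRDX1, PRDX2, PRDX3 and PRDX4 were not called between these doses.

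Of 15 genes of the pentose phosphate pathway and other sources of NADPH 2 rose and 1 fell over all doses. The shares of all genes tested were 1.86% and 2.84%. Transketolase, TKT, rose at 30 Gy by 1.19 (SE 0.258, adjusted p = 0.0382), a call lost without any 1 library other than 20Gy-2, 30Gy-3 and 40Gy-1 (0.0517 to 0.274, range 0.0131 to 0.565). Of 11 genes of the glucuronic acid pathway UGDH was the only one to rise against control at each dose. Among all genes tested 2.03%, 1.32% and 2.99% rose at 20, 30 and 40 Gy, and 4.41% fell at 40 Gy. At 40 Gy DCXR and XYLB, which act further down the route to pentose, fell by 1.14 (SE 0.24, adjusted p = 0.0207) and 1.26 (SE 0.282, adjusted p = 0.0259). DCXR lost the call without control-1, control-2 or 40Gy-3 (0.0564 to 0.106, range 0.00961 to 0.14) and XYLB without either control, 40Gy-2 or 40Gy-3 (0.0632 to 0.134, range 0.0125 to 0.134).

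For each of the 9 genes the 2 genes most like it were sought, by Pearson correlation of log2(FPKM + 1) over the 11 libraries among genes with a symbol and a mean of at least 5 FPKM. The libraries share dose groups and include the near-identical pairs, so these values are descriptions. SRXN1 was most like SPI1, the myeloid transcription factor PU.1 (r = 0.980), and NPTN (0.978). SPI1 stood at 73.3, 87.7 and 95.2 FPKM at 40 Gy against 19.2 to 33.7 in the other 8 libraries. TXNRD1 was most like the zinc and iron transporter SLC39A14 (0.987) and TMEM30A (0.985), and NQO1 most like the phosphate transporter SLC20A1 (0.964) and EXOSC10 (0.956). SLC39A14 had the same arrangement as TXNRD1, with 224 and 209 FPKM in 40Gy-2 and 40Gy-3, 100.5 in 40Gy-1 and 114 and 103 in control.

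GCLM was most like DENND3 (r = 0.933) and NAMPT (0.928), the enzyme that recycles nicotinamide to NAD. UGDH was most like the cholesterol exporter ABCA1 (0.969) and CORO6 (0.965). PGD was most like NUCKS1 (0.937) and ACSL4 (0.934), the acyl-CoA synthetase that loads polyunsaturated fatty acids into membranes, which was at 3.26 and 2.37 FPKM in control and 44.8, 45.6 and 49.7 in 20Gy-2, 30Gy-1 and 30Gy-2. GCLC was most like F11R (0.958) and BTG1 (0.948), NFE2L2 most like the ubiquitin ligase SIAH1 (0.959) and RLBP1 (0.937), and KEAP1 most like AIMP1 (0.973) and TMEM9B (0.967). No gene was named for more than 1 member.

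Among the 9 themselves the highest correlations over the 11 libraries were those of SRXN1 with TXNRD1 (r = 0.85), GCLC with NFE2L2 (0.81), SRXN1 with NQO1 (0.79) and GCLM with UGDH (0.77), and the lowest was that of PGD with NFE2L2 (-0.86). With 30Gy-2 and 30Gy-3, 1 of each near-identical pair, left out, these were 0.86, 0.77, 0.80, 0.77 and -0.85. Over the 8 libraries below 40 Gy they were 0.14, 0.85, -0.32, 0.96 and -0.93. The likeness of SRXN1 to TXNRD1 and NQO1 thus rested on the 40 Gy libraries, and that of GCLC to NFE2L2 and of PGD, inversely, to NFE2L2 did not. These 8 libraries include both near-identical pairs, and they split across dose in many genes. Over 4806 genes the SD of the log2 ratio of 20Gy-2 was 0.323 to 30Gy-1 and 0.352 to 30Gy-2. To 20Gy-1, 20Gy-3 and 30Gy-3 it was 0.548, 0.602 and 0.604. The part of this split in the correlations was not tested.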

How the data were processed

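The authors deposited 1 table of FPKM for 12505 genes in 11 libraries. TruSeq libraries were read as paired ends of 150 bp, per the labels' protocols. HISAT2, Cufflinks and HTSeq and the builds Sscrofa11.1 and mm10 are named in the submitters' processing notes. For roles, annotation, filters and strandedness the sources used here say nothing. FPKM divides by a library's total, so a few abundant RNAs lower all others. Totals of the table ran from 520839 to 949840. Ratios of values under 0.3 FPKM between libraries were searched for whole-read steps. At most 6.1% of them fell within a 1% bin, so depth is unknown and no counting intervals are given.

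Symbols were found for 10561 IDs, and coordinates by symbol in the Sscrofa11.1 RefSeq gene table. Genes reaching 1 FPKM in 2 or more libraries were fitted as log2(FPKM + 1) with 4 group means in limma 3.58.1 (R 4.3.3; eBayes with trend, 7 residual degrees of freedom, near-identical libraries counted as separate), two-sided, and the script was tested on simulated data. The rule named called pathway genes with a mean of at least 5 FPKM, at most 4 per list and comparison. Fewer are described here. Members, lists and alternatives were chosen with earlier results of these data known. Of the genes on these lists 1 enters the fits and counts but is not reported here by name or drawn.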

Additional observations from a re-analysis of the deposited data

How the results depend on the processing

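Counts of all genes called moved with the libraries used. In the order irradiated, 20, 30 and 40 Gy against control (548, 492, 353 and 861 genes), 40 against 20 Gy (1748) and 40 against 30 Gy (1417), they were 337, 295, 130, 548, 1264 and 532 with the 30 Gy pair averaged, 290, 206, 126, 551, 538 and 395 without 20Gy-3 and 30Gy-3, and 42, 59, 8, 123, 145 and 1 with both. For 30 against 20 Gy (0 genes) the last of these settings gave 1 gene, and leaving out 20Gy-3 and 30Gy-3 gave 2. Leaving out each library in turn gave 80 to 1416, 118 to 1644, 75 to 1110, 224 to 2655, 485 to 4174 and 466 to 3815 genes, the highest each time without 40Gy-1, and 0 to 3 for 30 against 20 Gy. Fits to only the groups compared gave 547 at 30 Gy and 48 at 40 Gy against control, and 555 and 575 for 40 against 20 and 30 Gy, and a minimum mean of 5 FPKM gave 222 at 30 Gy. The cause was not tested, beyond the fewer libraries or genes these settings use.

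Over 41 results on the 9 genes, each called or at least 0.3 in size, no alternative turned a direction: 819 of 938 values kept their side of the threshold, 109 lost a call and 10 gained one. The 819 include values of results that were not called at first and stayed so, which had no call to lose. All 109 losses fell on called results. At 40 Gy against control the GCLM call held in 7 of 23 alternatives and the SRXN1 call in all 23. Results under 0.3 that were not called were left out and the alternatives re-used the same libraries, so the lack of a turned direction says little. Same-numbered libraries did not consistently deviate together (r of -0.62 to 0.65 over 15 pairs, 7 of them above 0.1, and 5 of 11 libraries most like one of their own number). Some did: r was 0.645 for 20Gy-2 with 30Gy-2. It was 0.570 for 20Gy-3 with 30Gy-3, the near-identical cross-dose pair, and 0.357 and 0.103 for these with 40Gy-3. With the replicate number as a block the counts were 440, 399, 244, 805, 1844 and 1498, and 0 for 30 against 20 Gy. GCLM was then not called over all doses (adjusted p = 0.0774) or at 40 Gy (0.0551), and PGD was called at 40 Gy (0.0357).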
